A study of Mus musculus with 15 samples.

Results

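The genes described here encode the 3 canonical HMGB proteins (*Hmgb1*, *Hmgb2* and *Hmgb3*) and the receptors and co-receptors through which extracellular HMGB1 is known to act (*Ager*, *Tlr2*, *Tlr4*, *Cd14*, *Ly96*, *Cxcr4* and *Trem1*). They were taken from a list of names that uses no measured value as a criterion but was drawn up with earlier results of these data known, and are 10 of the 51763 gene rows measured. Poly(A) RNA was sequenced from murine bone-marrow-derived macrophages (BMDMs) in 5 conditions with 3 libraries each. The cells came from wild-type female C57BL/6NTac mice aged 8 to 10 weeks, with no allele altered in any condition, and were matured with M-CSF for 8 to 9 days by one description and for 10 days by another. Every stimulation lasted 24 h. The control received PBS, frHMGB1 was recombinant fully reduced HMGB1 at 5 µg/mL, and dsHMGB1 was recombinant disulfide HMGB1 at 5 µg/mL. LPS was the ultrapure LPS-EK at 1 µg/mL. LPS/IFNγ, the classical M1 stimulation, combined LPS with 20 ng/mL of IFN-γ, and the LPS dose is given as 1 µg/mL in one label and as 100 ng/mL in the protocol, so that comparisons of LPS/IFNγ with LPS may also hold a difference in LPS dose. BMDMs of 5 mice were pooled before seeding, so the 3 libraries of a condition are technical replicates, and every standard error and p-value below describes the spread between such libraries and not between animals. Both HMGB1 proteins carried a purification tag, and the buffers of frHMGB1 alone contained the reducing agent DTT. The dsHMGB1 was a gift from another laboratory, which is not stated for frHMGB1, and endotoxin was reported as below a low limit. A difference between the isoforms can therefore not be told apart from a difference between protein preparations.

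HMGB1 is a nuclear protein that binds and bends DNA through its HMG boxes, and it becomes an alarm signal when stressed macrophages secrete it or dying cells lose it. Outside the cell its activity depends on cysteine residues. With a disulfide bond between the first 2 of them it engages the TLR4 and MD-2 complex, to which CD14 delivers ligands, whereas the fully reduced form pairs with CXCL12 and signals through CXCR4 in cell migration. RAGE, TLR2 and TREM-1 are further receptors reported for HMGB1 on myeloid cells, and HMGB2 and HMGB3 are close relatives of HMGB1 that share its DNA-binding boxes.

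Sequencing gave 40934540 to 80925478 counts per library. The third PBS library stood apart. Its Pearson correlation with the other PBS libraries was 0.933 to 0.938, against 0.987 to 0.993 in every other replicate pair. Many of the results that rest on it are also given without it. The dsHMGB1 replicates were uneven too. Their chi-square per degree of freedom, a measure of how far the counts of a pair of libraries part beyond sampling, was 22.9 to 86.6. It was 692 and 763 in the pairs with the third PBS library and 4.31 to 10.1 in all remaining pairs. Markers of macrophages were abundant in all libraries, with a summed level of 13146 to 27039.6 CPM, a count scaled to the total of its library, over 7 genes. They were highest in frHMGB1 (26778 to 27039.6 CPM) and lowest in LPS/IFNγ (13146 to 13453 CPM). Most of this sum was the single gene *Lyz2* (9140 to 20450 CPM), so it does not show how the other macrophage markers moved. The 7 neutrophil markers summed to at most 5.47 CPM with *Ly6g*, *S100a9* and *Mpo* at 0, and the 5 lymphocyte markers to at most 0.152 CPM with *Cd3e* and *Cd3g* at 0. The 4 dendritic cell markers summed to 1.61 to 2.77 CPM in PBS and to 13.0 to 14.2 CPM in LPS/IFNγ, nearly all of it *Zbtb46* and *Xcr1*. *Flt3* held 6 counts and *Siglech* 2 over all libraries. The 5 fibroblast markers lay between 118 and 282 CPM. The 4 markers of alveolar epithelium summed to between 2.63 CPM, in PBS, and 41.7 CPM, in LPS/IFNγ, with *Sftpc* and *Sftpa1* at 0. Nearly all of this sum was the single gene *Hopx* (2.6 to 41.6 CPM), and *Aqp5* held 10 counts over all libraries. The part of other cell types in the results below was not tested. In bulk RNA, a change in the number of cells that express a gene cannot be told apart from a change in RNA per cell.

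The *Hmgb* genes differ from the receptors in how well their reads can be placed. Processed pseudogenes, which are DNA copies of a spliced mRNA, hold large parts of their coding sequence. The stretch of *Hmgb1* that carries the codons of cysteines 23 and 45, the pair joined in dsHMGB1, shows why a read from the gene may also match a copy. It covers bases 58 to 147 of the 648-base coding sequence and lies in one coding exon on the minus strand of chr5:149050591-149050680 (GRCm38, GENCODE M21). In the first line the cysteine codons are in capitals, and in the other lines capitals mark bases that differ from *Hmgb1*. *Gm5518* and *Hmgb1-ps5* are processed pseudogenes on chromosomes 19 and 3, and *Hmgb2* and *Hmgb3* are shown for comparison.
Hmgb1: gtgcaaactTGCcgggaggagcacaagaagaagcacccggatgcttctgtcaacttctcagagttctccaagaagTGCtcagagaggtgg
Gm5518: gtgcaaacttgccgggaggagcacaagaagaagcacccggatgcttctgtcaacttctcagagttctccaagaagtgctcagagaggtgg
Hmgb1-ps5: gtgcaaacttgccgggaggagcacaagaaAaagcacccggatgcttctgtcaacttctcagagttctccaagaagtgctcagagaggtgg
Hmgb2: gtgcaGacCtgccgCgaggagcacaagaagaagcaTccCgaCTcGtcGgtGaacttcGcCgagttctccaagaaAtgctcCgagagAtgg
Hmgb3: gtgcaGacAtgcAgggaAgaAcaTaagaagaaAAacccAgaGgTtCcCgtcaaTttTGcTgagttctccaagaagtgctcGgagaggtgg

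The *Gm5518* copy has 0 differences from *Hmgb1* over these 90 bases and the *Hmgb1-ps5* copy has 1, whereas *Hmgb2* has 15 and *Hmgb3* has 18. Over the coding sequences, *Hmgb1* and *Hmgb2* were 76.8% identical, *Hmgb1* and *Hmgb3* 73.6%, and *Hmgb2* and *Hmgb3* 71.1%. Of all 50-base stretches in the *Hmgb1* coding sequence, 98.5% also occur in another annotated gene, against 95.2% for *Hmgb2* and 89.9% for *Hmgb3*. Over whole transcripts, which include the longer untranslated regions, the shares were 26.1%, 21.2% and 28.3%. The 7 receptor genes had shares between 0 and 0.222% and are not affected in this way.

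Aligned to the annotation at 85% identity or more over at least 200 bases, *Hmgb1* had 142 pseudogene copies, of which 116 held counts and 40 were at least 95% identical to it. *Hmgb2* had 12 copies, 7 of them with counts, and *Hmgb3* had 17, 3 of them with counts. Over all libraries *Hmgb1* itself held 10035 counts and its copies together 7665. *Hmgb1-ps5* alone held 1335 of these and *Gm5518* 653. How the authors treated reads that match several places is not given in the sources used here.

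The share of counts that fell on copies was not the same in all conditions. Of the counts on *Hmgb1* and its copies together, the copies held 46.5 to 62.2% in PBS, 46.3 to 51.2% with dsHMGB1 and 53.1 to 54.3% with LPS/IFNγ. In frHMGB1 they held only 18 to 28.9%, and in LPS 34.5 to 36.0%, with no overlap with the other 3 conditions. For *Hmgb2* the same split was seen at a lower level, where frHMGB1 had 5.48 to 11.6% and LPS 6.83 to 8.68%, and the remaining conditions had 12.6 to 18.7%. *Hmgb3* had too few counts on copies to order the conditions, and its share ranged from 5 to 47.4%. Processed pseudogenes as a whole moved alike, taking 0.54 to 0.56% of all counts in frHMGB1 and 0.481 to 0.487% in LPS, and 0.684 to 1.49% in the other libraries. Fold changes of the *Hmgb* genes are therefore given both as counted and with the counts of the copies added to the parent gene. A difference in log2 fold change is called here where its Benjamini-Hochberg adjusted p from edgeR's quasi-likelihood test, fitted over the 16919 genes that passed the filter on low counts, was under 0.05. Log2 fold changes and standard errors (SE) are those of DESeq2.

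**Figure D1:**
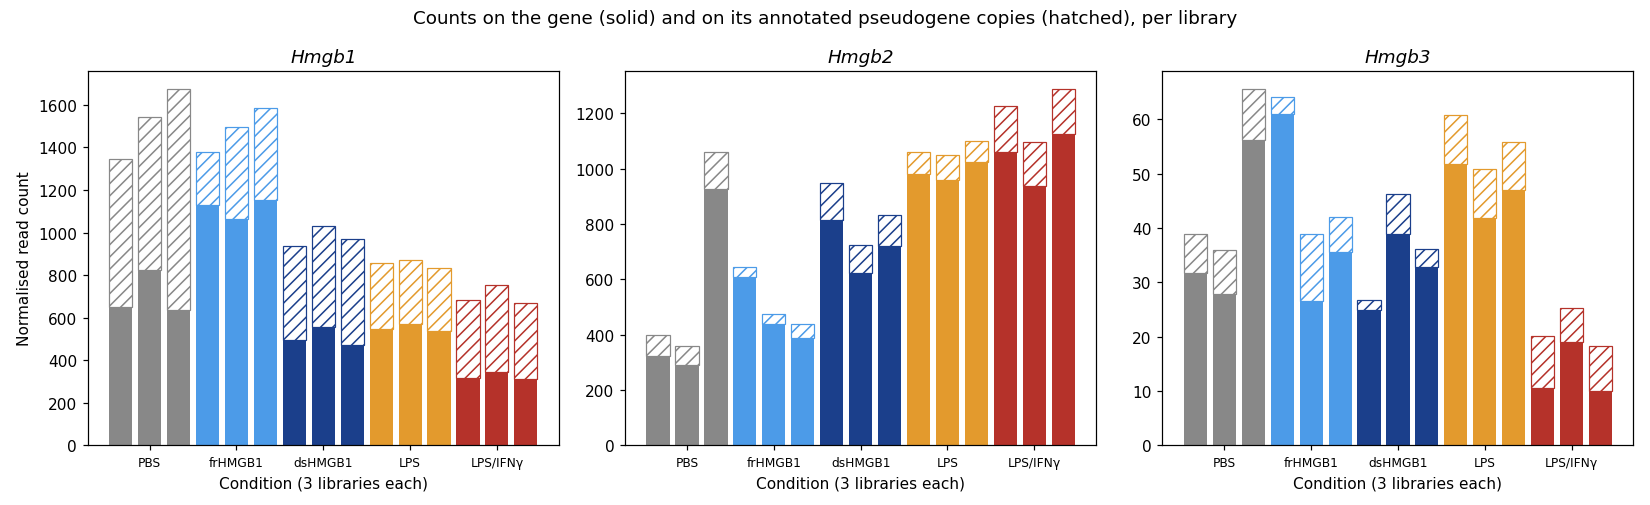
Normalised read counts of *Hmgb1*, *Hmgb2* and *Hmgb3* in each of the 15 libraries (vertical axes, one bar a library, 3 bars a condition), with the counts on the gene itself as solid bars and those on its annotated pseudogene copies stacked on top as hatched bars. Relative to the whole bar, the hatched part of *Hmgb1* is smallest in frHMGB1 (18 to 28.9%) and LPS (34.5 to 36.0%), and the whole bars are of like height in PBS (1348 to 1676) and frHMGB1 (1378 to 1584).

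*Hmgb1*, the gene of the protein used as stimulus, was lowest in LPS/IFNγ and highest in frHMGB1. Its normalised counts in replicates 1, 2 and 3 were 652, 825 and 634 in PBS, 1129.9, 1062 and 1151 in frHMGB1, and 493, 554 and 473 in dsHMGB1. In LPS they were 548, 571 and 539.6, and in LPS/IFNγ 316, 344 and 313. Only dsHMGB1 and LPS overlapped. As counted, *Hmgb1* was called higher than in PBS after frHMGB1, with a log2 fold change of 0.66 (SE 0.12, adjusted p = 0.00407), and lower after dsHMGB1 (-0.48, SE 0.12, adjusted p = 0.00596), LPS (-0.35, SE 0.12, adjusted p = 0.0113) and LPS/IFNγ (-1.12, SE 0.12, adjusted p = 3.54e-06). The call in frHMGB1 was lost when the copies were added, with a log2 fold change of -0.03 and an adjusted p of 0.988, and the 95% interval as counted ran from 0.43 to 0.89. As counted, the fall after LPS was no longer called without the second PBS library (adjusted p = 0.0632) or without the first or the third LPS library (adjusted p = 0.0525 and 0.0648), nor with no filter on low counts (adjusted p = 0.113). In fits of the 2 conditions compared alone, the changes after frHMGB1, dsHMGB1 and LPS were not called (adjusted p = 0.147, 0.101 and 0.199).

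With the copies added, *Hmgb1* had 1523 ± 165 normalised counts in PBS and 1485 ± 104 in frHMGB1 (mean ± SD, n = 3 each). The sum was lower in dsHMGB1 (979 ± 48.8), LPS (854 ± 18.9) and LPS/IFNγ (702 ± 45.6). The falls after dsHMGB1 (-0.63, adjusted p = 0.000152), LPS (-0.83, adjusted p = 6.54e-06) and LPS/IFNγ (-1.12, adjusted p = 3.31e-07) were all called on this sum. dsHMGB1 lay below frHMGB1 both as counted (-1.14, adjusted p = 4.98e-06) and on the sum (-0.60, adjusted p = 0.000154). Between dsHMGB1 and LPS the sign turned, from -0.12 as counted (adjusted p = 0.739) to 0.20 on the sum (adjusted p = 0.129), and neither difference was called. With the third PBS library also left out, the difference on the sum was 0.20 and called (adjusted p = 0.0306). The fall from LPS to LPS/IFNγ shrank from -0.77 (adjusted p = 0.000816) to -0.28 (adjusted p = 0.0457).

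*Hmgb2*, the HMGB gene most tied to dividing cells, went the other way in the inflammatory conditions. Its normalised counts were 324, 291 and 925 in PBS, 608, 438 and 387 in frHMGB1, and 813, 624 and 720.4 in dsHMGB1. They were 979.9, 959 and 1023 in LPS and 1062, 937 and 1126 in LPS/IFNγ. The third PBS library was just below the LPS libraries, while the other 2 PBS libraries were below all others. *Hmgb2* was called higher than in PBS after LPS (0.95, SE 0.36, adjusted p = 0.025) and LPS/IFNγ (1.02, SE 0.36, adjusted p = 0.0144), but not after dsHMGB1 (0.49, SE 0.36, adjusted p = 0.208) or frHMGB1 (-0.10, SE 0.36, adjusted p = 0.958). Without the first PBS library neither rise was called (adjusted p = 0.0928 and 0.0561), and without the second the rise after LPS was not (adjusted p = 0.0851). Neither was called in a fit of the 2 conditions compared alone (adjusted p = 0.117 and 0.107).

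Without the third PBS library, *Hmgb2* was called higher than PBS in all 4 conditions, with log2 fold changes of 0.64 for frHMGB1 (adjusted p = 0.00806), 1.22 for dsHMGB1 (adjusted p = 2.09e-06), 1.67 for LPS (adjusted p = 2.94e-08) and 1.75 for LPS/IFNγ (adjusted p = 1.46e-08). The order from frHMGB1 over dsHMGB1 to LPS was then also called at each step, at 0.58 (adjusted p = 0.00113) and 0.45 (adjusted p = 0.00944), and the step from LPS to LPS/IFNγ of 0.08 was not (adjusted p = 0.715). Adding the copies moved the *Hmgb2* changes over PBS by little, to 0.82 in LPS and 0.99 in LPS/IFNγ, and both were still called (adjusted p = 0.0299 and 0.0127).

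*Hmgb3*, the least abundant of the 3, stood out by its low level in LPS/IFNγ. There it had 10.6, 18.9 and 10.1 normalised counts, below every other library, against 31.7, 27.7 and 56.2 in PBS and 51.7, 41.8 and 47.1 in LPS. The frHMGB1 libraries (26.6 to 60.9) and the dsHMGB1 libraries (24.9 to 38.9) overlapped those of PBS. It fell by 1.52 in LPS/IFNγ against PBS (SE 0.43, adjusted p = 0.00383) and fell by 1.84 against LPS (SE 0.43, adjusted p = 0.0043), and it was 1.30 higher in dsHMGB1 than in LPS/IFNγ (SE 0.43, adjusted p = 0.0195). With the copies added the first 2 were called (-1.11, adjusted p = 0.0054, and -1.40, adjusted p = 0.00438), and the difference between dsHMGB1 and LPS/IFNγ was 0.79 and no longer called (adjusted p = 0.0579). It was also not called without the second dsHMGB1 library (adjusted p = 0.0717) or the first or the third LPS/IFNγ library (adjusted p = 0.0719 and 0.0789). Without the third PBS library the change in LPS/IFNγ against PBS was -1.19 (adjusted p = 0.0103). With the copies added as well it was -0.83 (adjusted p = 0.0199).

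The make-up of HMGB mRNA differed between conditions. Per kilobase of exon, *Hmgb1* supplied 27.5 to 60% of the 3 *Hmgb* genes together in PBS, where the low end was the third library, and 49.5 to 61.3% in frHMGB1. It supplied 25.8 to 32.9% in dsHMGB1, 22.9 to 25.2% in LPS and 14.1 to 17.6% in LPS/IFNγ. *Hmgb2* supplied 62 to 71.2% in dsHMGB1, 70.7 to 72.6% in LPS and 80.2 to 84.9% in LPS/IFNγ. These shares are of counts on the genes alone, without those on the copies. In every condition the copies held a larger part of the counts for *Hmgb1* than for *Hmgb2*, so the shares of *Hmgb1* may be too low.

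The LPS receptor complex is encoded by *Tlr4*, *Ly96* and *Cd14*. *Tlr4*, the signalling chain, had 3275, 3773 and 1444 normalised counts in PBS, 3032, 2832 and 2846 in frHMGB1, and 3439, 5075 and 3665 in dsHMGB1. In LPS it had 3384, 3276 and 3103, and in LPS/IFNγ 1718, 1709 and 1786. Apart from the third PBS library, all other libraries lay above those of LPS/IFNγ. No rise over PBS was called after frHMGB1 (0.04, 95% interval -0.50 to 0.58, adjusted p = 0.967), dsHMGB1 (0.52, 95% interval -0.02 to 1.06, adjusted p = 0.153) or LPS (0.20, 95% interval -0.34 to 0.74, adjusted p = 0.716). These changes were, with the third PBS library left out, -0.28 (adjusted p = 0.115), 0.20 (adjusted p = 0.235) and -0.12 (adjusted p = 0.205). Without the second, the rise after dsHMGB1 was 0.78 and called (adjusted p = 0.0367).

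*Tlr4* was lower in LPS/IFNγ than in PBS (-0.70, SE 0.28, adjusted p = 0.0303), than in LPS (-0.91, SE 0.28, adjusted p = 0.0328) and than in dsHMGB1, which exceeded it by 1.22 (SE 0.28, adjusted p = 0.00335). Each of the first 2 calls was lost under 6 of 24 alternative settings. The fall from PBS was not called without the first or second PBS library (adjusted p = 0.0963 and 0.151) or any 1 of the LPS/IFNγ libraries (adjusted p = 0.0636 to 0.0724), and the fall from LPS was not called without any 1 of the LPS or LPS/IFNγ libraries (adjusted p = 0.0537 to 0.0753). Without the third PBS library both were called (-1.03, adjusted p = 2.03e-07, and -0.91, adjusted p = 1.97e-06), and *Tlr4* was then also called higher in dsHMGB1 than in frHMGB1 (0.48, adjusted p = 0.00115) and than in LPS (0.32, adjusted p = 0.0136).

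*Ly96*, which encodes MD-2, the subunit that holds the lipid A of LPS, rose in steps. It had 609, 596 and 788 normalised counts in PBS, 659.6, 549.8 and 628 in frHMGB1, and 1259.8, 1089 and 918 in dsHMGB1. It reached 2339.8, 1999.6 and 2322 in LPS and 2865, 2859 and 2682 in LPS/IFNγ. PBS and frHMGB1 overlapped, and each of the other conditions lay wholly above the one before. Against PBS, the log2 fold change was 0.72 for dsHMGB1 (SE 0.15, adjusted p = 0.000553), 1.75 for LPS (SE 0.15, adjusted p = 1.23e-07), 2.08 for LPS/IFNγ (SE 0.15, adjusted p = 1.64e-08) and -0.11 for frHMGB1 (SE 0.15, adjusted p = 0.781). dsHMGB1 was below LPS by a log2 fold change of -1.03 (adjusted p = 0.000114). The step from LPS to LPS/IFNγ (0.34, SE 0.15) just missed the threshold with an adjusted p of 0.051, and it was called in 7 of 24 alternative settings. Among these were the fits without the third or the second PBS library (adjusted p = 0.0104 and 0.049) and without the third dsHMGB1 library (adjusted p = 0.0373). Others were the fit of these 2 conditions alone (adjusted p = 6.42e-05), a filter of 1 CPM in 3 libraries (adjusted p = 0.0419) and protein-coding genes alone (adjusted p = 0.0413).

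*Cd14*, the co-receptor that passes LPS to MD-2 and TLR4, was the most abundant of the 10 genes per kilobase of exon in every condition but PBS and frHMGB1. Its normalised counts were 9250.4, 8520.4 and 15845 in PBS, 10808, 11252 and 10249 in frHMGB1, and 82073, 67846 and 71409 in dsHMGB1. They were 95335, 93230.0 and 99905 in LPS and 29939, 27256 and 27472 in LPS/IFNγ. The frHMGB1 libraries fell inside the range of PBS, and the other conditions overlapped with none. Compared to PBS, *Cd14* was 6.59-fold higher after dsHMGB1 (log2 fold change 2.72, SE 0.20, adjusted p = 2.15e-08), 8.58-fold higher after LPS (3.10, SE 0.20, adjusted p = 4.51e-09) and 2.52-fold higher after LPS/IFNγ (1.33, SE 0.20, adjusted p = 1.11e-05).

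After frHMGB1 the change in *Cd14* was -0.06 (95% interval -0.45 to 0.33, adjusted p = 0.959), and without the third PBS library it was 0.28 and called (adjusted p = 0.0184). LPS/IFNγ was lower than LPS by 1.77 on the log2 scale (adjusted p = 5.8e-06) and lower than dsHMGB1 by 1.39 (adjusted p = 2.05e-05). The difference between dsHMGB1 and LPS was not called with all libraries (-0.38, adjusted p = 0.166) and was called without the third PBS library (-0.38, adjusted p = 0.000223).

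*Tlr2*, a receptor for bacterial lipopeptides, had the largest rises of the 10 genes. It had 2993, 3205 and 2837 normalised counts in PBS, 5114, 4949 and 5039 in frHMGB1, and 51118, 46771 and 48370.3 in dsHMGB1. In LPS it had 59632, 59891 and 61216, and in LPS/IFNγ 15984, 17333 and 16743. No 2 conditions overlapped, and replicates lay close together. *Tlr2* was 16.2-fold higher than PBS after dsHMGB1 (log2 fold change 4.02, SE 0.06, adjusted p = 1.52e-12), 20.0-fold after LPS (4.32, SE 0.06, adjusted p = 6.42e-13) and 5.53-fold after LPS/IFNγ (2.47, SE 0.06, adjusted p = 4.1e-11).

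After frHMGB1, *Tlr2* was higher than PBS by 1.67-fold (0.74, SE 0.06, adjusted p = 8.9e-05), and dsHMGB1 exceeded frHMGB1 at the same dose by 9.68-fold (3.28, SE 0.06, adjusted p = 9.87e-12). The rise after frHMGB1 was called in each of the alternative settings that kept all 5 conditions in the fit, and not in a fit of these 2 conditions alone (0.72, adjusted p = 0.0511). LPS/IFNγ was lower than LPS (-1.85, adjusted p = 1.26e-08). dsHMGB1 was 0.31 below LPS on the log2 scale (95% interval -0.42 to -0.19, adjusted p = 0.0405), a call that was lost under 10 of 24 alternative settings. These included the omission of any 1 frHMGB1 or LPS library and of the second or the third dsHMGB1 library (adjusted p = 0.0618 to 0.138). DESeq2's own test, with all libraries, gave adjusted p = 3.83e-06 for *Tlr2* in dsHMGB1 against LPS.

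The *Tlr2* promoter is shown because its gene had the largest rise and because the promoter table holds the NF-κB consensus more than once there. NF-κB is the transcription factor best known to act downstream of TLR4. The 91 bases below run from 250 to 160 bases before the RefSeq start, at chr3:83841768-83841858 on the minus strand (GRCm38.p6), and capitals mark an overlapping pair of consensus matches.
Tlr2 promoter: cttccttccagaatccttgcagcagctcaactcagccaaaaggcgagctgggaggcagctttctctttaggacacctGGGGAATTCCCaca

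Searched on both strands for the 10-base NF-κB consensus, the whole *Tlr2* window of the table held 3 matches, 2 of which overlap in the capitals and 1 of which spans the start. Of 32851 RefSeq promoters of the same length, 8.46% held at least 1 match and 1.22% held 2 or more. As the *Tlr2* promoter was picked partly for its matches, these shares are a description and not a test. The *Hmgb2* window held 1 match, and those of *Ager*, *Cxcr4*, *Hmgb1*, *Hmgb3* and *Trem1* held 0. *Cd14*, *Tlr4* and *Ly96* were not examined. A match of letters does not show that the factor binds there.

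**Figure D2:**
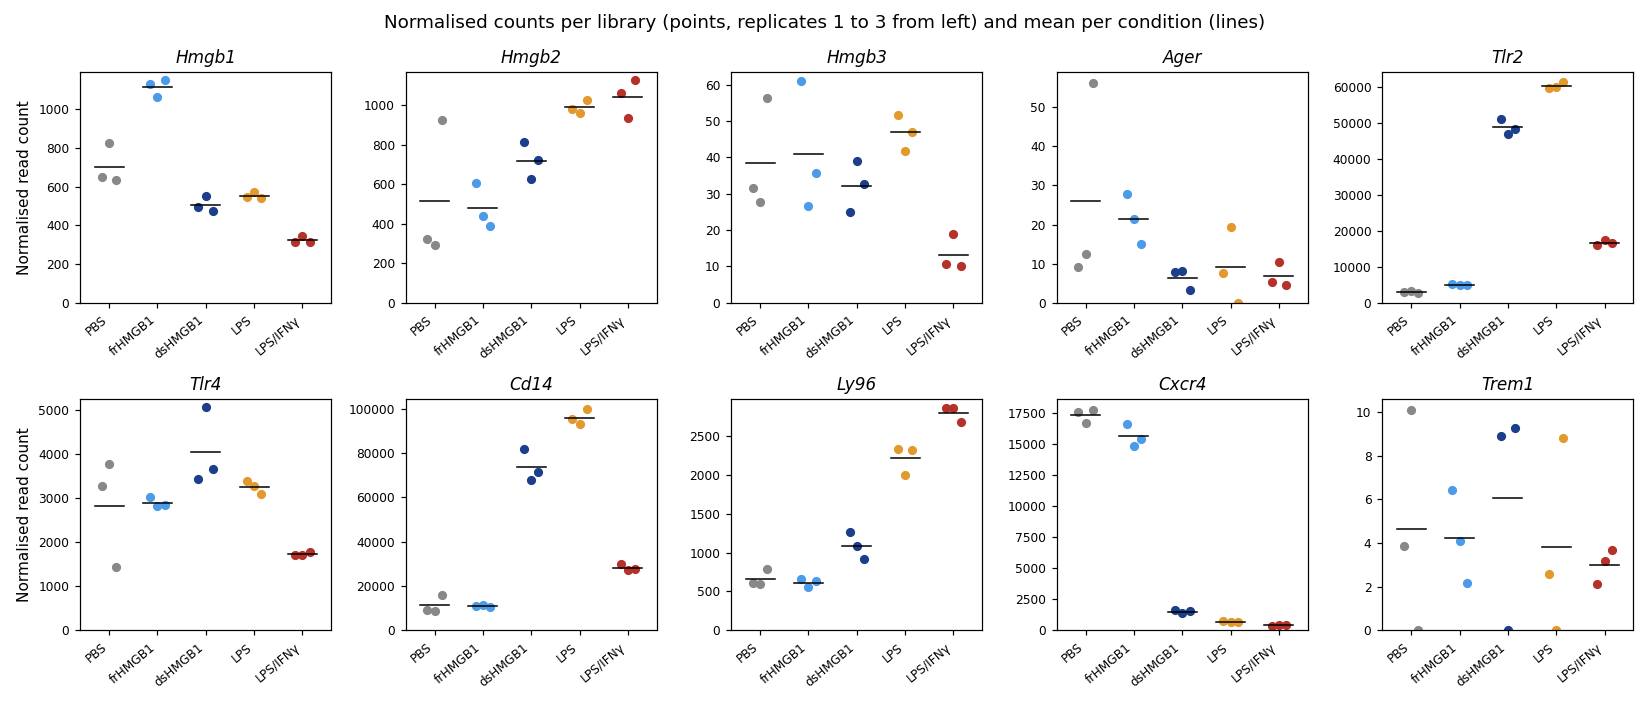
Normalised read counts of the 10 genes in each of the 15 libraries (vertical axes start at 0 and differ between panels), with points for replicates 1 to 3 of each condition from left to right and a line at the mean. *Tlr2* and *Cd14* are highest in LPS and dsHMGB1, *Ly96* climbs to LPS/IFNγ, *Cxcr4* is high only in PBS and frHMGB1, and the third PBS point is off its neighbours in *Hmgb2*, *Tlr4*, *Cd14* and *Ager*.

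*Cxcr4*, the chemokine receptor for CXCL12, had the largest falls. Its normalised counts were 17595, 16677 and 17749 in PBS and 16618, 14856 and 15405 in frHMGB1. They were 1599, 1351 and 1529.9 in dsHMGB1, 714, 623 and 622 in LPS, and 371, 406 and 377 in LPS/IFNγ. No conditions overlapped, although those of PBS and frHMGB1 were neighbours. *Cxcr4* was 11.6-fold lower than PBS after dsHMGB1 (log2 fold change -3.54, SE 0.09, adjusted p = 1.06e-11), 26.5-fold lower after LPS (-4.73, SE 0.09, adjusted p = 6.84e-13) and 45.1-fold lower after LPS/IFNγ (-5.49, SE 0.10, adjusted p = 2.54e-13).

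The change in *Cxcr4* after frHMGB1, the isoform known to act through CXCR4, was -0.15 (95% interval -0.32 to 0.02, adjusted p = 0.527). dsHMGB1 was lower than frHMGB1 by 3.39 on the log2 scale (adjusted p = 1.58e-11) and higher than LPS by 1.19 (adjusted p = 1.01e-06) and than LPS/IFNγ by 1.96 (adjusted p = 5.82e-09). LPS/IFNγ was lower than LPS (-0.77, adjusted p = 8.46e-05). Every *Cxcr4* call between these conditions was made in all alternatives tried.

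*Ager*, which encodes RAGE and is known for its high level in lung alveolar cells, was near the limit of detection. Its normalised counts were 9.05, 12.6 and 56.2 in PBS, 27.8, 21.5 and 15.1 in frHMGB1, and 8.01, 8.07 and 3.36 in dsHMGB1. In LPS they were 7.76, 19.4 and 0, and in LPS/IFNγ 5.3, 10.5 and 4.57. The raw counts behind them were 0 to 48 a library, and the highest was again the third PBS library. All dsHMGB1 libraries were below the PBS libraries, but no *Ager* difference was called by edgeR, the lowest adjusted p among the changes over PBS being 0.074 in LPS/IFNγ (-1.91, SE 0.86) and 0.0771 in dsHMGB1 (-1.98, SE 0.85). DESeq2 gave adjusted p = 0.041 and 0.0389 for these. Without the third PBS library the changes were -0.69 (adjusted p = 0.391) and -0.74 (adjusted p = 0.392). Without the first PBS library edgeR called both (adjusted p = 0.038 and 0.0404), as it did without the third LPS library (adjusted p = 0.037 and 0.0415).

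*Trem1*, an amplifying receptor of neutrophils and monocytes, did not pass the filter on low counts with all libraries and was not tested there. It passed in several alternatives, the fit without the third PBS library among them, and no difference was called in any (-0.23, SE 1.12, adjusted p = 0.818 in dsHMGB1 against PBS). It held 72 counts over the 15 libraries, with 0 to 16 in PBS, 2 to 6 in frHMGB1, 0 to 11 in dsHMGB1, 0 to 6 in LPS and 2 to 4 in LPS/IFNγ. A difference in *Trem1* was not detectable at this depth.

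**Figure D3:**
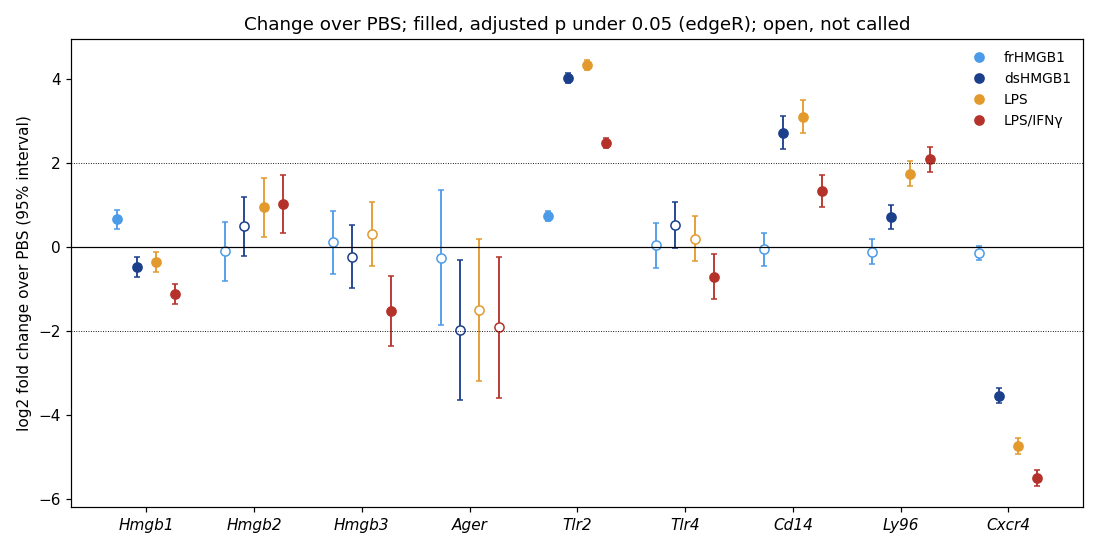
Log2 fold change over PBS (vertical axis) of the 9 genes that could be tested, one point per stimulation, with 95% intervals, filled points where edgeR's adjusted p was under 0.05 and dotted lines at a log2 fold change of 2 and -2. *Tlr2* and *Cd14* rise past the upper line after dsHMGB1 and LPS, *Cxcr4* lies below the lower line in 3 stimulations, and frHMGB1 is filled only for *Hmgb1* (0.66, lost with the copies added) and *Tlr2* (0.74).

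Counted over the 9 genes that could be tested, frHMGB1 differed from PBS in *Hmgb1* and *Tlr2*, both higher, and in 0 genes lower. Over all genes tested, 1.31% were called higher and 5.69% lower in this comparison, many of them pseudogenes, and the shares were 0.315% and 0.223% when protein-coding genes alone were fitted. With the copies added, *Tlr2* was the only gene of the 9 called. Without the third PBS library, where *Trem1* was tested as well, 4 of 10 were called, *Cd14* and *Hmgb2* being also higher, against 8.41% higher and 9.09% lower among all genes. The median log2 fold change of processed pseudogenes was -1.84 and that of protein-coding genes 0.03.

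dsHMGB1 differed from PBS in 5 of the 9 genes, with *Tlr2*, *Cd14* and *Ly96* higher and *Hmgb1* and *Cxcr4* lower, where 23.3% of all genes were called higher and 24.2% lower. LPS differed in 6, with the same 3 receptors and *Hmgb2* higher and *Hmgb1* and *Cxcr4* lower (26.7% and 36.2% of all genes). LPS/IFNγ differed in 8, with *Tlr2*, *Cd14*, *Ly96* and *Hmgb2* higher and *Hmgb1*, *Hmgb3*, *Tlr4* and *Cxcr4* lower (29% and 31.2% of all genes). These 4 comparisons share the PBS libraries. With a cut-off on size alone, a log2 fold change past 2 in either direction and no test, *Tlr2* and *Cd14* were above and *Cxcr4* was below in both dsHMGB1 and LPS. In LPS/IFNγ these were *Tlr2* and *Ly96* above and *Cxcr4* below, and in frHMGB1 there were 0. Of all genes, 8.43% lay above and 4.76% below these limits in dsHMGB1, 10.9% and 14% in LPS, 12.1% and 9.69% in LPS/IFNγ, and 0.609% and 6.83% in frHMGB1.

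The redox isoforms, given at the same dose and time as separate preparations, differed in 5 of the 9 genes. *Tlr2*, *Cd14* (2.78, SE 0.20, adjusted p = 2.12e-08) and *Ly96* (0.83, SE 0.15, adjusted p = 0.000194) were higher in dsHMGB1 than in frHMGB1, and *Hmgb1* and *Cxcr4* were lower, where 27.7% of all genes were called higher and 23.1% lower. Without the third PBS library 8 of 10 were called, against 35.8% higher and 32.9% lower among all genes. The differences in *Tlr4* (0.48, 95% interval -0.06 to 1.02), *Hmgb2* (0.59, 95% interval -0.11 to 1.29), *Hmgb3* (-0.34, 95% interval -1.10 to 0.41) and *Ager* (-1.73, 95% interval -3.40 to -0.05) were not called with all libraries.

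dsHMGB1 and LPS, which both act through TLR4, differed in 3 of the 9 genes. *Cxcr4* was higher in dsHMGB1, and *Ly96* and *Tlr2* were lower, against 15.8% and 10.6% of all genes. Compared with LPS/IFNγ, dsHMGB1 was higher in *Hmgb1*, *Hmgb3*, *Tlr2*, *Tlr4*, *Cd14* and *Cxcr4* and lower in *Ly96* (-1.36, SE 0.15, adjusted p = 3.61e-06), against 16.5% and 16.7% of all genes. Between LPS/IFNγ and LPS, 6 genes were lower with IFN-γ, namely *Hmgb1*, *Hmgb3*, *Tlr2*, *Tlr4*, *Cd14* and *Cxcr4*, and 0 were called higher, against 9.36% lower and 16.3% higher among all genes.

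Ordered by level, *Tlr2* was the one gene for which every neighbouring pair of conditions was called different, from PBS over frHMGB1, LPS/IFNγ and dsHMGB1 to LPS. *Cd14* ran from frHMGB1 and PBS, which were not called different, over LPS/IFNγ to dsHMGB1 and LPS, also not called different (adjusted p = 0.166). *Cxcr4* ran from LPS/IFNγ over LPS and dsHMGB1 to frHMGB1 and PBS, of which the last pair alone was not called different (adjusted p = 0.527). *Hmgb1* ran from LPS/IFNγ over dsHMGB1, LPS and PBS to frHMGB1, with dsHMGB1 and LPS not called different as counted. For *Hmgb2* and *Ager* no neighbours were called different, for *Tlr4* only LPS/IFNγ and PBS, and for *Hmgb3* only LPS/IFNγ and dsHMGB1.

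Levels of different genes were compared as normalised counts per kilobase of exon. In PBS, *Cxcr4* was the most abundant of the 10 at 9591 ± 321, followed by *Cd14* at 6469 ± 2329, *Tlr2* at 999 ± 61.2, *Ly96* at 651 ± 105 and *Tlr4* at 509 ± 221 (mean ± SD, n = 3). In dsHMGB1, *Cd14* was first at 42596 ± 4274 and *Tlr2* the second at 16176 ± 729, and *Cxcr4* had moved to the fourth place at 826 ± 70.6. It was the fifth in LPS at 361 ± 29.1 and the sixth in LPS/IFNγ at 213 ± 10.4. The *Hmgb* genes stayed between the fourth and the eighth place, with *Hmgb1* at 140.1 ± 21.1 in PBS and *Hmgb2* at 347 ± 32.1 in LPS/IFNγ, and *Ager* and *Trem1* were the last in all conditions. The *Hmgb* levels here leave out the counts on copies, so their places, also among each other, may be too low. In PBS, adding the copies took the mean normalised count from 704 to 1523 for *Hmgb1* and from 514 to 606 for *Hmgb2*.

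Within the TLR4 complex the balance of transcripts moved with stimulation. The ratio of *Cd14* to *Tlr4* per kilobase was 7.24, 9.06 and 35.2 in the PBS libraries from lowest to highest, where the highest was the third library, and 11.4 to 12.7 in frHMGB1. It was 42.9 to 76.6 in dsHMGB1, 90.4 to 103 in LPS and 49.3 to 55.9 in LPS/IFNγ. The ratio of *Ly96* to *Tlr4* was 0.86 to 2.97 in PBS, 1.06 to 1.2 in frHMGB1 and 1.17 to 1.99 in dsHMGB1. It was 3.32 to 4.07 in LPS and 8.17 to 9.1 in LPS/IFNγ, where MD-2 transcripts were thus in largest excess over those of TLR4.

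**Figure D4:**
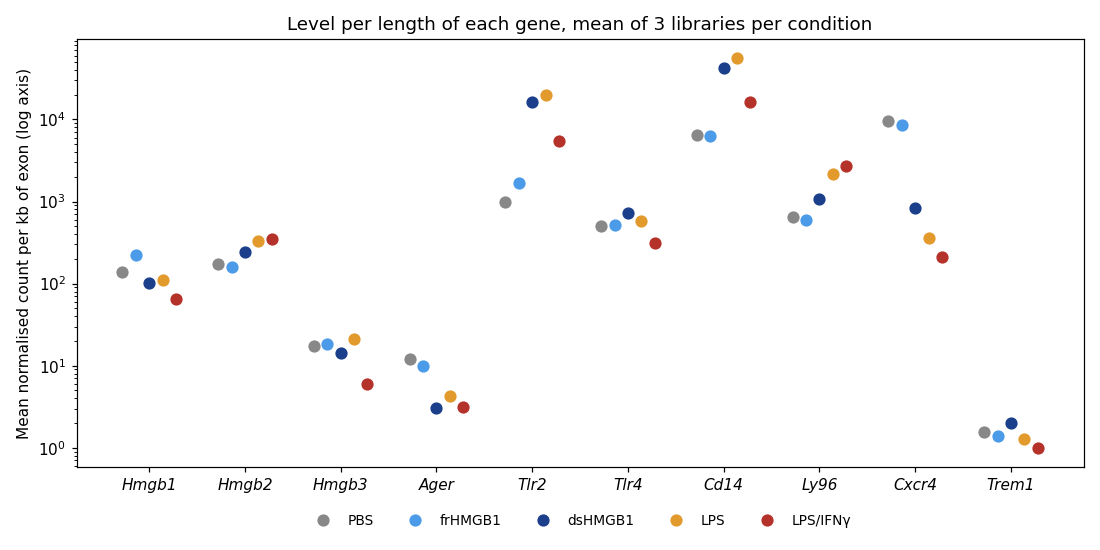
Mean normalised count per kilobase of exon (vertical log axis) of the 10 genes, with one point for each of the 5 conditions. *Cd14* and *Tlr2* lead after dsHMGB1 and LPS, *Cxcr4* drops from 9591 in PBS to 213 in LPS/IFNγ, and *Ager*, *Hmgb3* and *Trem1* lie below all other genes.

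The genes whose log2(normalised count + 1) followed each member most closely were sought among 10102 protein-coding genes with a mean of at least 100 normalised counts, as a description over 15 libraries that share 5 conditions. *Tlr2* was followed most closely by *Rcsd1* (r = 0.996), *St3gal3* and *Vasp*, *Cd14* by *Slamf9* (r = 0.998), *Rbm43* and *Ttc39c*, and *Cxcr4* by *Arhgap25* (r = 0.997), *Nlrx1* and *Klhl21*. *Ly96* was followed by *Prkar1a* (r = 0.994), *Mpp1* and *Hopx*, and *Tlr4* by *Ankrd27* (r = 0.971), *Sash1* and *Senp5*. For *Hmgb1* they were *Rbm10* (r = 0.972), *Htra2* and *Arl16*, and for *Hmgb2* *Zbtb17* (r = 0.963), *2310011J03Rik* and *Lamtor5*. *Hmgb3* (*Cry2*, r = 0.881, and *Slc20a1*) and *Ager* (*Zfp825*, r = 0.866, *Psrc1* and *Mettl5*), which had few counts, had the lowest values. Among the members, *Tlr2* and *Cd14* were most alike (r = 0.975) and *Ly96* and *Cxcr4* most opposed (r = -0.95).

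Genes that work with the receptors were examined as a list of 18 partners and adaptors of TLR4 and TLR2. Of these, 8 were called higher and 2 lower than PBS after dsHMGB1, with a median log2 fold change of 0.43 against -0.10 over all genes, of which 23.3% were called higher and 24.2% lower. The counts were 11 and 4 after LPS (26.7% and 36.2% of all genes), 9 and 6 after LPS/IFNγ (29% and 31.2%), and 1 and 0 after frHMGB1 (1.31% and 5.69%). *Tlr1*, which pairs with TLR2 in the sensing of triacyl lipopeptides, had the largest rise of the list in dsHMGB1, from 884 ± 363 to 11661 ± 1652 normalised counts (SD, n = 3, log2 fold change 3.72, SE 0.25, adjusted p = 1.06e-07), and rose by 3.09 in LPS/IFNγ. *Tlr1* was also the one gene of the list called in frHMGB1 (1.00, SE 0.25, adjusted p = 0.0265). When protein-coding genes alone were fitted, this call was lost and 0 genes of the list were called in frHMGB1. *Cnpy3*, a chaperone needed for the folding of Toll-like receptors, had the largest fall, by 1.04 in dsHMGB1 (SE 0.07, adjusted p = 2.17e-07) and fell by 1.84 in LPS/IFNγ (SE 0.07, adjusted p = 4.38e-10).

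Of 10 further binding partners of HMGB1 and adaptors of its receptors, 1 was called higher and 4 lower in dsHMGB1 (23.3% and 24.2% of all genes), 1 and 5 in LPS (26.7% and 36.2%), 2 and 5 in LPS/IFNγ (29% and 31.2%), and 0 and 0 in frHMGB1 (1.31% and 5.69%). *Thbd*, which encodes thrombomodulin, a protein that binds HMGB1 at the cell surface, had the largest fall, from a PBS level of 592 ± 319 normalised counts to 46.5 ± 14.3 in dsHMGB1 (-3.67, SE 0.41, adjusted p = 1.14e-05) and 58.1 ± 9.25 in LPS/IFNγ (-3.35, SE 0.41, adjusted p = 1.3e-05). *Ackr3*, the second receptor of CXCL12, had the largest rise but few counts, with 2 over the PBS libraries, 4 over those of frHMGB1, 20 each over dsHMGB1 and LPS, and 63 over LPS/IFNγ.

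Of 15 other nuclear HMG and HMG-box genes, *Hmgb4* held 0 counts and 14 were tested. In dsHMGB1, 7 were called higher and 5 lower (23.3% and 24.2% of all genes), against 9 and 4 in LPS (26.7% and 36.2%), 8 and 5 in LPS/IFNγ (29% and 31.2%), and 0 and 0 in frHMGB1 (1.31% and 5.69%). *Hmgn3*, a nucleosome-binding HMG protein, rose from 205 ± 164 to 466 ± 93.6 in dsHMGB1 (1.19, SE 0.40, adjusted p = 0.0162) and to 1083 ± 107 in LPS/IFNγ (2.41, SE 0.40, adjusted p = 0.000103). With all libraries the largest fall in dsHMGB1 was that of its relative *Hmgn1* (-1.06, SE 0.29, adjusted p = 0.00394), from a PBS level of 3797 ± 2207. When the third PBS library was left out, *Hmgn3* was at 2.06 (adjusted p = 4.11e-08) and *Hmgn1* at -0.48 (adjusted p = 1.6e-05) in dsHMGB1, where *Hmga2*, a chromatin protein of the HMGA family, then had the largest fall (-1.23, adjusted p = 4.98e-10).

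Among 15 genes of HMGB1 oxidation, acetylation and release, 8 were called higher and 2 lower in dsHMGB1, with a median log2 fold change of 0.92 (all genes 23.3% higher and 24.2% lower, median -0.10). The counts were 9 and 2 in LPS, with a median of 1.11 (all genes 26.7% and 36.2%, median -0.21), 11 and 3 in LPS/IFNγ, with a median of 1.31 (all genes 29% and 31.2%, median -0.12), and 1 and 0 in frHMGB1 (all genes 1.31% and 5.69%). When protein-coding genes alone were fitted, 0 genes of this list were called in frHMGB1. *Casp4*, which encodes caspase-11, a protease that senses cytosolic LPS and drives lytic cell death, rose from 1169 ± 294 to 13014 ± 609 in dsHMGB1 (3.48, SE 0.14, adjusted p = 1.22e-10) and to 19225 ± 386 in LPS/IFNγ (4.04, SE 0.14, adjusted p = 1.91e-11). *Parp1*, a DNA damage sensor that modifies HMGB1, had the largest fall (-0.96, SE 0.21, adjusted p = 0.00196 in dsHMGB1, and -1.94, SE 0.22, adjusted p = 3.51e-06 in LPS/IFNγ), from a PBS level of 5031 ± 1676.

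Since *Hmgb2* is tied to cell division, 20 proliferation genes were set beside it. More of them were called lower than higher, with 1 higher and 13 lower in dsHMGB1 (median -0.66), where 23.3% of all genes were called higher and 24.2% lower. The counts were 4 and 14 in LPS (median -1.0, all genes 26.7% and 36.2%), 3 and 16 in LPS/IFNγ (median -1.32, all genes 29% and 31.2%), and 1 and 0 in frHMGB1 (all genes 1.31% and 5.69%). When protein-coding genes alone were fitted, 0 proliferation genes were called in frHMGB1. *Mki67*, the gene of the Ki-67 antigen, went against its list and rose from 873 ± 263 to 8322 ± 1624 in dsHMGB1 (3.25, SE 0.21, adjusted p = 4.99e-08) and to 12429 ± 571 in LPS/IFNγ (3.83, SE 0.21, adjusted p = 7.11e-09). With all libraries the largest falls were those of *Stmn1*, a microtubule regulator, in dsHMGB1 (-2.02, SE 0.37, adjusted p = 0.000302), with a PBS level of 2307 ± 1693, and of *Aurkb*, a mitotic kinase, in LPS/IFNγ (-3.10, SE 0.23, adjusted p = 1.63e-08). When the third PBS library was left out, *Stmn1* was at -1.23 in dsHMGB1 (adjusted p = 6.5e-08) and *Aurkb* had the largest fall there too (-1.84, adjusted p = 4.99e-08). The lists gave, when that library was left out, 9 and 6, 2 and 5, 7 and 4, 9 and 1, and 1 and 14 genes higher and lower in dsHMGB1, in the order described, against 29.8% and 29% of all genes. In frHMGB1 they gave 1 and 0, 1 and 2, 5 and 0, 6 and 0, and 4 and 0, against 8.41% and 9.09%.

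**Figure D5:**
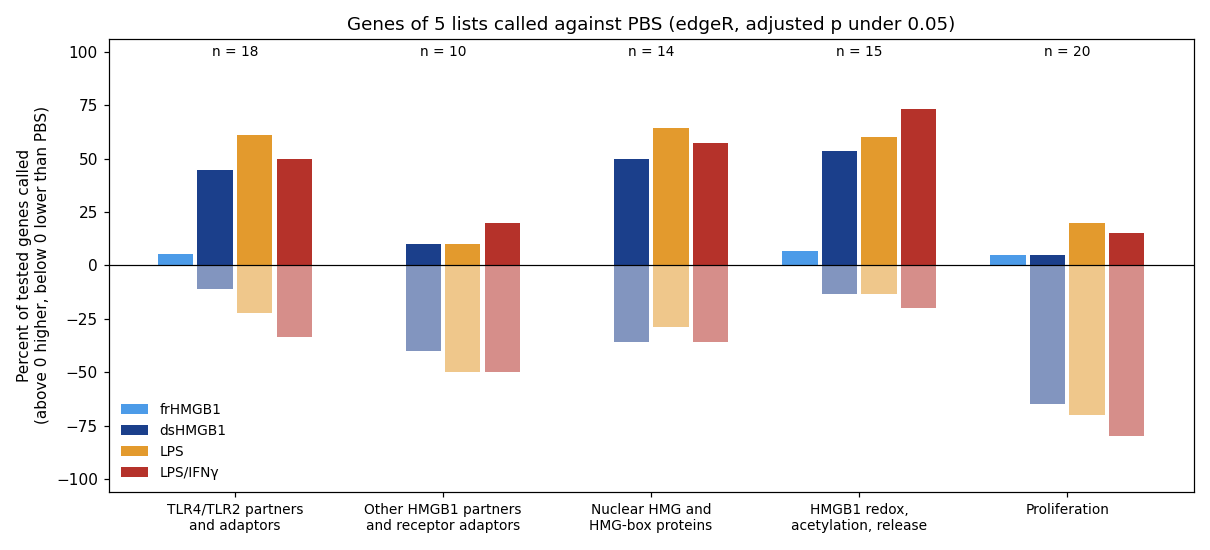
Percent of the tested genes of the 5 lists that edgeR called higher (bars above 0) or lower (bars below 0) than PBS, one bar per stimulation, with the number of genes tested over each list. frHMGB1 has almost no bars. In dsHMGB1, LPS and LPS/IFNγ the bars below 0 are longer than those above it for the proliferation list, with 13 of 20 genes lower in dsHMGB1 and 16 of 20 in LPS/IFNγ, and for the list of other HMGB1 partners and receptor adaptors, with 4 and 5 of 10.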

How the data were processed

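Illumina stranded mRNA libraries of 15 BMDM samples were sequenced in pairs. Per the labels and the study's methods, the authors demultiplexed with CASAVA, mapped the reads to GRCm38 with STAR and deposited raw counts per Ensembl gene. How reads were counted is not given in the sources used here. For names, of 51763 rows, 51661 were found in GENCODE M21.

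Counts were tested with edgeR 4.0.16 (TMM, quasi-likelihood F test, filterByExpr with a minimum of 10 counts and 15 in all, 15 libraries in 1 fit), called at a Benjamini-Hochberg adjusted p under 0.05 over 16919 genes. Normalised counts, unshrunken log2 fold changes and SE came from DESeq2 1.42.0 on the same genes, with 95% intervals of 1.96 SE (R 4.3.3). Pseudogene copies were found with blastn 2.17.0. Code was tested on simulated data. The sum of 40934540 to 80925478 counts per library limits precision for *Ager*, *Hmgb3* and *Trem1*.

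Every member is named, as are the 3 genes most like each and, per list, the called genes with the largest rise and fall in dsHMGB1 and LPS/IFNγ, apart from a few that are not reported here. The members and lists were chosen with earlier results of these data known. Alternatives were other normalisations and filters, DESeq2's own test, protein-coding genes alone, fits of 2 conditions, copies added to their parent genes, the replicate number as a block, and the omission of each library in turn.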

Additional observations from a re-analysis of the deposited data

How the results depend on the processing

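Of 1709 values of single genes under the alternatives, 1607 kept their direction and their side of the threshold, 40 kept their direction but were no longer called, 37 became called and 25 changed sign. The changes of *Cxcr4*, and those of *Cd14* and *Tlr2* over PBS in dsHMGB1, LPS and LPS/IFNγ, were among those kept in all. The number of genes called of the 9 tested (10 where *Trem1* passed the filter), by edgeR's adjusted p, moved past 1.5 times its value as follows. For frHMGB1 against PBS it fell from 2 to 1 with the copies added and to 0 in a fit of these conditions alone, and 0 were past a log2 fold change of 2. That cut-off left 3 of 5 for dsHMGB1, 3 of 6 for LPS and 3 of 8 for LPS/IFNγ against PBS, 3 of 5 for dsHMGB1 against frHMGB1, and 0 for dsHMGB1 against LPS, dsHMGB1 against LPS/IFNγ and LPS/IFNγ against LPS. For dsHMGB1 against frHMGB1 the number rose to 8 in a fit of the conditions compared alone and to 8 with the copies added and the third PBS library left out, and for dsHMGB1 against LPS it rose from 3 to 6 and to 7. That last pair of choices was added after the data were seen. The share of all genes called in the same alternative fit is not given for these edgeR counts. Their moves can therefore not be read as particular to these genes. The causes were not tested.

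Leaving out each library in turn gave 2 to 4 genes for frHMGB1 against PBS, 5 to 6 for dsHMGB1, 4 to 6 for LPS and 7 to 9 for LPS/IFNγ against PBS, 5 to 8 for dsHMGB1 against frHMGB1, 2 to 6 for dsHMGB1 against LPS, 6 to 8 for dsHMGB1 against LPS/IFNγ and 5 to 7 for LPS/IFNγ against LPS. The upper ends for frHMGB1 against PBS, dsHMGB1 against frHMGB1 and dsHMGB1 against LPS (4, 8 and 6) were reached without the third PBS library. For the first 2 of these, more of all genes were also called in that fit. For frHMGB1 against PBS it called 8.41% higher and 9.09% lower, against 1.31% and 5.69% with all libraries. For dsHMGB1 against frHMGB1 it called 35.8% and 32.9%, against 27.7% and 23.1%. The share of all genes is not given here for the other comparisons and omissions. Those ranges can therefore not be read as particular to these genes.

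The values that changed sign were those of genes not called with all libraries, apart from *Hmgb1* in frHMGB1 against PBS. With libraries omitted singly, the log2 fold changes in frHMGB1 against PBS ran from -0.66 to 0.99 for *Ager*, -0.21 to 0.28 for *Cd14*, -0.37 to 0.64 for *Hmgb2*, -0.27 to 0.47 for *Hmgb3*, -0.18 to 0.026 for *Ly96* and -0.28 to 0.31 for *Tlr4*. In dsHMGB1 against PBS they ran from -0.42 to 0.12 for *Hmgb3*, in LPS against PBS from -0.12 to 0.46 for *Tlr4*, and in dsHMGB1 against frHMGB1 from -0.59 to 0.046 for *Hmgb3*. *Ager* ran from -1.06 to 0.69 in dsHMGB1 against LPS, from -0.29 to 0.40 in dsHMGB1 against LPS/IFNγ and from -1.0 to 0.75 in LPS/IFNγ against LPS. The end with the turned sign came without the third PBS library for all of these against PBS but *Hmgb3* in frHMGB1 (first frHMGB1 library), and otherwise without the first frHMGB1, the second LPS or the second LPS/IFNγ library. With the copies added and the third PBS library left out, the values in frHMGB1 against PBS were 0.99 for *Ager*, 0.28 for *Cd14*, 0.46 for *Hmgb2*, 0.026 for *Ly96* and -0.28 for *Tlr4*, that of *Tlr4* in LPS against PBS was -0.12, and that of *Hmgb1* in dsHMGB1 against LPS was 0.20 (adjusted p = 0.0306). With the copies added alone, *Hmgb1* was at -0.034 in frHMGB1 against PBS and at 0.20 in dsHMGB1 against LPS. Over protein-coding genes alone *Tlr4* was at -0.032 in frHMGB1 against PBS.

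The labels number the replicates 1 to 3 in every condition. Of 30 pairs of same-numbered libraries, 1 deviated together with a correlation over 0.1 (range -0.34 to 0.34). Both ends of this range were between PBS and dsHMGB1, and the deviations are from means of only 3 libraries. Whether the numbers pair the libraries can therefore not be decided this way, and the main fit treated them as unpaired. With the replicate number as a block, *Tlr2* was no longer called in dsHMGB1 against LPS (-0.31, adjusted p = 0.0629), which leaves 2 genes called there, and no other call of these genes changed.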
